A study of Homo sapiens with 4 samples.

Results

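The kinesin motor family was described in OMM2.3, an established line of human uveal melanoma whose genotype is labelled wild type. The 2 conditions were meclofenamic acid (MA) and its DMSO control (NC), each for 24 h. The family and the gene lists below were chosen with earlier results of these data known. Members were matched by gene symbol, as KIF with a number and an optional letter, KIFC with a number, or CENPE. This gave 38 of the 14416 genes in the table of input levels, and 31 of the 38 reached 1 FPKM (reads scaled to gene length and library total) in at least 1 input library. Each condition had 1 input library of fragmented poly(A) RNA and 1 library of fragments bound by an antibody to N6-methyladenosine (m6A), called RIP. No condition had a replicate, so every difference below describes these libraries, with no p-value and no SD. Besides acting on cyclooxygenases, meclofenamic acid is known to inhibit FTO, an enzyme that removes m6A.

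Kinesins are motors that hydrolyse ATP in a conserved head domain and move along, or take apart, microtubules. The mitotic members build the spindle, move chromosomes and finish cytokinesis, and the transcripts of many, though not of all, are known to accumulate in G2 and M phase. The transport members carry vesicles, endosomes, mitochondria and, in pigment cells, melanosomes. The family was split by these known roles into 15 mitotic, 15 transport and 8 other members, the last with known parts in cilia or signalling or with little known function. KIF2B, KIF5A, KIF17, KIF12, KIF19 and KIF28P were not analysed here.

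The read totals recovered from the input values were 37041597 for NC and 41630895 for MA. Of 9 melanocyte lineage markers, 8 reached 1 FPKM, with a summed level of 7403 FPKM in NC and 3206 in MA. Levels were listed for 2 of 4 endothelium markers, 5 of 5 of epithelium, 4 of 6 of neurons and 3 of 5 of motile cilia. None of these reached 1 FPKM in either input. Levels were also listed for 4 of 6 fibroblast and 4 of 6 immune markers. Of these, LUM was the single fibroblast marker to reach 1 FPKM and CD68 the single immune one. The median of all 10564 tested genes was a log2 difference of 0.11 (MA over NC, with 1 FPKM added to both values). By this measure 10.3% of tested genes were higher with MA by 2-fold or more and 2.98% were lower by as much.

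The clearest feature of the family was a group of mitotic kinesins with higher input levels in MA. All 14 tested mitotic members were above 0, against 56.7% of all tested genes. After centring on the median of all genes 13 were above 0, and 12 after centring by gene length. The 56.7% is not the matching share for these 2 counts, since centring places the median of all genes at 0. In all, 7 of the 14 (50.0%) were higher by 2-fold or more, against the 10.3% over all genes. These 7 were KIF15, CENPE, KIF18A, KIF14, KIF11, KIF23 and KIF20B. The median log2 difference of the mitotic members was 0.92, within a range of 0.02 to 1.93. With 5 FPKM added in place of 1, 4 of the 7 and none of the transport members below stayed past 2-fold. Of the 14 tested transport members, 3 (21.4%) were higher by 2-fold and no member was lower by as much, with a median of 0.41. In bulk RNA, more cells in a phase of the cycle and more RNA per cell cannot be told apart.

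The promoters of the mitotic members are shown because 7 of the 14 tested were past 2-fold in the inputs and 7 were not. RefSeq promoter sequences (GRCh38.p14) were found for 32 of the 38 members, and the 250 bases before the start were searched on both strands for 3 motifs of cell cycle promoters. These were the CHR element (TTTGAA), known in genes of G2 and M phase, the CCAAT box (CCAAT) and an E2F core (GCGGGAA). None of these motifs contains another. The CHR letters were in 5 of 15 mitotic promoters (33.3%), against 8.01% of the 8698 tested genes with a promoter and 13.6% of all 27305 promoters of that length. A CCAAT box was in 11 of the 15 (73.3%), against 36.4% of tested genes and 33.0% of all promoters. The 15 include KIF4B, which stayed under 1 FPKM and was not tested. Its promoter held a CCAAT box but no CHR letters. The E2F letters were in none of the 15, against 9.47% and 5.59%. Among 11 transport promoters, 1 held the CHR letters, that of KIF5B, and 3 held a CCAAT box. The 5 mitotic matches are printed 5′ to 3′ on the strand of the gene with 20 bases on each side where they fit before the start. Capitals mark the CHR letters, which read TTCAAA where the match is on the opposite strand.
KIF11: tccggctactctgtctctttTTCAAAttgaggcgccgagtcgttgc
KIF15: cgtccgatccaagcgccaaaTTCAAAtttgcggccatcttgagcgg
KIF18A: gctgaggaaagtggcttgggTTTGAAtatt
KIF23: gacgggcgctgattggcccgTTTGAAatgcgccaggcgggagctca
KIF4A: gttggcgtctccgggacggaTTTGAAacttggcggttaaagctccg
These windows lie at chr10:92593082-92593127 on the plus strand for KIF11 and at chr3:44761739-44761784 on the plus strand for KIF15. For KIF18A the window is chr11:28108157-28108186 on the minus strand, for KIF23 chr15:69414274-69414319 on the plus strand and for KIF4A chrX:70290050-70290095 on the plus strand. The first base of the match was 28 bases before the start in KIF11, 35 in KIF15, 10 in KIF18A, 55 in KIF23 and 34 in KIF4A. The KIF23 window also holds the letters of a CCAAT box on the opposite strand. Of the 7 mitotic members higher by 2-fold in the input, 4 had the CHR letters, against 1 of the 7 under 2-fold. A CCAAT box was in 5 of 7 in both sets. CENPE, KIF14 and KIF20B, all past 2-fold, had no CHR letters. KIF23, which had them, fell under 2-fold after centring on the median of all genes (0.95) or by gene length (0.93). The CHR share of all tested genes split by input difference was not counted, and a link of the letters to the input was not tested. A match is a description of letters, and a promoter without one says only that they are not in this window.

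**Figure D1:**
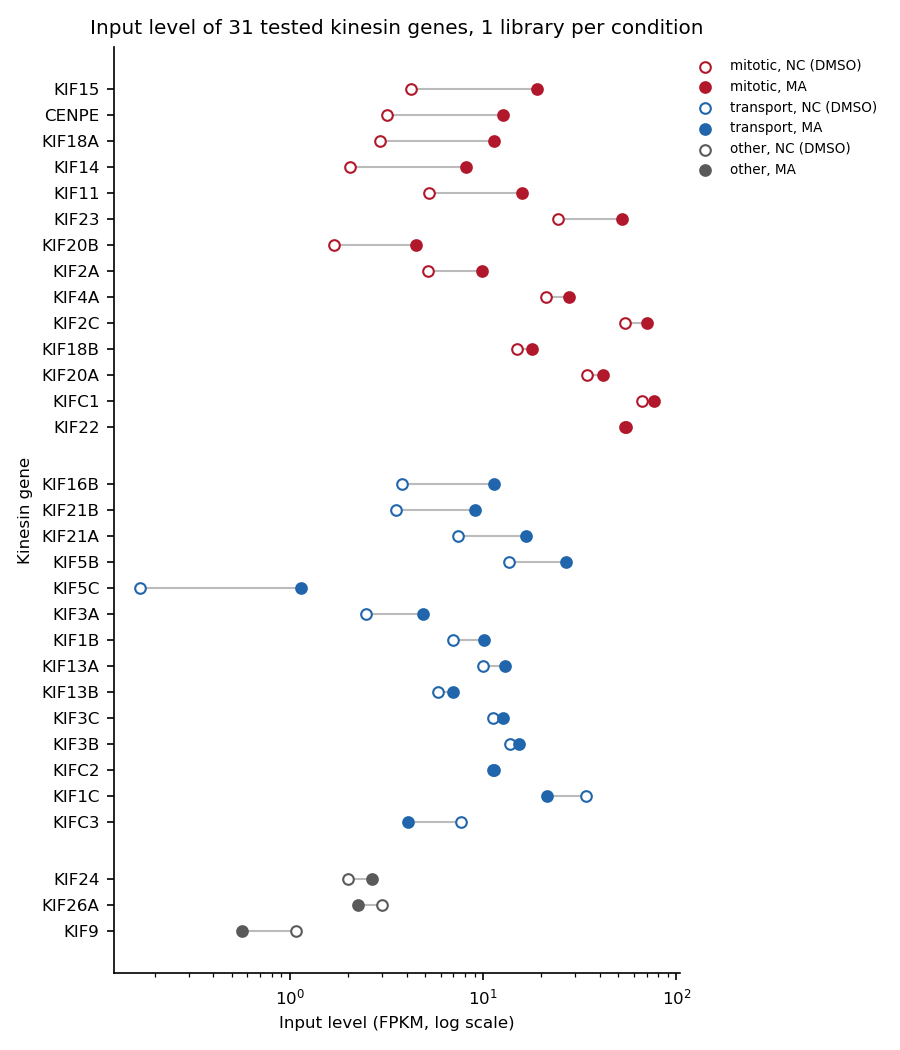
Input level in FPKM (horizontal log axis) of the 31 tested kinesin genes in NC (open circles) and MA (filled circles), 1 library each, by class and ordered by log2 difference. KIF15, CENPE, KIF18A, KIF14 and KIF11 had the widest gaps among mitotic members, while KIF22 was at 54.0 in NC and 54.7 in MA.

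Motors that set up the spindle and align chromosomes included KIF15, CENPE, KIF18A and KIF11, all past 2-fold. KIF15, which can hold the spindle poles apart beside KIF11, was at 4.21 FPKM in NC and 18.9 in MA, a log2 difference of 1.93. The unadjusted ratio was 4.48-fold, with a 95% counting interval of 4.16 to 4.83. CENPE, the kinetochore motor that brings chromosomes to the metaphase plate, was at 3.18 in NC and 12.6 in MA, a ratio of 3.98-fold (3.71 to 4.26). KIF18A, which shortens kinetochore microtubules and damps chromosome movement, was at 2.93 in NC and 11.3 in MA, a ratio of 3.84-fold (3.47 to 4.27). KIF11, the motor that slides antiparallel microtubules apart, was at 5.21 in NC and 15.9 in MA, a ratio of 3.04-fold (2.48 to 3.76). In each of these 4 motors the MA level was thus several times the NC level. All intervals here are exact binomial intervals from the smallest read numbers that match the FPKM values. They cover counting error only, not the spread between cultures.

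Motors of the central spindle and of cytokinesis were divided. KIF14, which acts with PRC1 and citron kinase in cytokinesis, was at 2.04 FPKM in NC and 8.17 in MA, a ratio of 4.01-fold (3.67 to 4.38). KIF20B, needed for abscission, was at 1.68 in NC and 4.47 in MA (log2 difference 1.03). KIF23, the motor subunit of centralspindlin, was more abundant, at 24.5 in NC and 52.1 in MA (1.06). By contrast, KIF20A, which brings the chromosomal passenger complex to the midzone, was at 34.6 in NC and 41.5 in MA (0.25). KIF4A, which sets the length of midzone microtubules with PRC1, was at 21.1 and 27.9 (0.39). So 3 of these 5 motors were past 2-fold, or KIF14 alone after centring on the median of all genes (KIF20B 0.92, KIF23 0.95) or by gene length (0.76 and 0.93). KIF20A and KIF4A were higher by less, with counting intervals of the ratio above 1 (1.15 to 1.25 and 1.27 to 1.38). KIF4B, a near-identical copy of KIF4A, was listed at 0.222 and 0.394 FPKM, and its reads cannot be assigned with certainty.

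KIF2C, KIF2A, KIF18B, KIFC1 and KIF22 stayed under 2-fold. KIF2C, which takes apart wrongly attached kinetochore microtubules, was at 54.1 FPKM in NC and 70.6 in MA (log2 difference 0.38). KIF2A, which acts at spindle poles, was at 5.14 and 9.79 (0.81), and KIF18B, which trims astral microtubules, at 14.9 and 17.9 (0.25). KIFC1, a minus-end motor that bundles spindle poles, was the most abundant kinesin, at 66.4 in NC and 76.5 in MA (0.20). KIF22, a chromokinesin that pushes chromosome arms outward, was at 54.0 and 54.7, and the counting interval of its ratio (0.974 to 1.05) held 1. Its log2 difference of 0.02 became -0.09 after centring on the median of all genes and -0.01 after centring by gene length, and that of KIF18B became -0.03 in the latter. These members, apart from KIF2A and KIF18B, stood in the most abundant 1 of 3 equal bins of all tested genes.

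Among transport motors, 3 were higher by 2-fold or more in MA. KIF16B, a motor of early endosomes, was at 3.81 FPKM in NC and 11.3 in MA, a ratio of 2.98-fold (2.79 to 3.19). KIF21A and KIF21B, which also restrain microtubule growth, were at 7.36 and 3.51 in NC and at 16.6 and 9.08 in MA, with log2 differences of 1.07 and 1.16. Both fell under 2-fold after centring by gene length (0.86 and 0.78), and KIF21A also after centring on the median of all genes (0.96). KIF5B, the kinesin-1 heavy chain found in most cells, lay just under the threshold, at 13.5 in NC and 26.9 in MA (0.94). Its neuronal relative KIF5C was at 0.166 FPKM in NC and 1.13 in MA, a ratio of 6.81-fold with a wide interval (4.40 to 11.0), since the NC value rested on a minimum of 23 reads. With 1 FPKM added, the log2 difference of KIF5C was 0.87. After rescaling to TPM, KIF5B and KIF5C also passed 2-fold, and with 0.1 FPKM added KIF5C did (2.21).

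Most other cargo motors differed by less, and KIF1C and KIFC3 were lower in MA. The kinesin-2 motor subunits KIF3B and KIF3C were at 13.7 and 11.2 FPKM in NC and 15.3 and 12.6 in MA, while KIF3A was at 2.48 and 4.87 (log2 difference 0.76). KIF13A, known to carry cargo toward melanosomes, was at 10.0 and 13.0 (0.34), and KIF13B at 5.79 and 6.98 (0.23). KIF1B, which moves mitochondria and vesicle precursors, was at 6.97 and 10.1 (0.48). KIFC2, at 11.2 and 11.4, had a ratio interval that held 1 (0.950 to 1.09). Centring by gene length put KIF13A (-0.04), KIF13B (-0.15), KIF3B (-0.07), KIF3C (-0.06) and KIFC2 (-0.10) below 0, and centring on the median of all genes did so for KIFC2 (-0.09). Lower levels in MA were found for KIF1C, a vesicle motor, at 34.2 in NC and 21.4 in MA (-0.65), and for the minus-end motor KIFC3, at 7.67 and 4.05 (-0.78). KIF1A, a neuronal motor, stayed under 0.1 FPKM in both.

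Of the other members, KIF24, KIF26A and KIF9 reached 1 FPKM. KIF24, a centriolar depolymerase that restrains cilia, was at 2.00 FPKM in NC and 2.64 in MA (log2 difference 0.28, or -0.10 after centring by gene length). KIF26A, which lacks motor activity, was at 3.00 and 2.25 (-0.30), and KIF9, of motile cilia, at 1.07 and 0.559 (-0.41). KIF27, KIF6, KIF7, KIF25 and KIF26B stayed under 1 FPKM in both inputs. Among these KIF27 had a ratio of 3.09-fold (2.33 to 4.14) at levels of 0.174 and 0.536 FPKM.

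**Figure D2:**
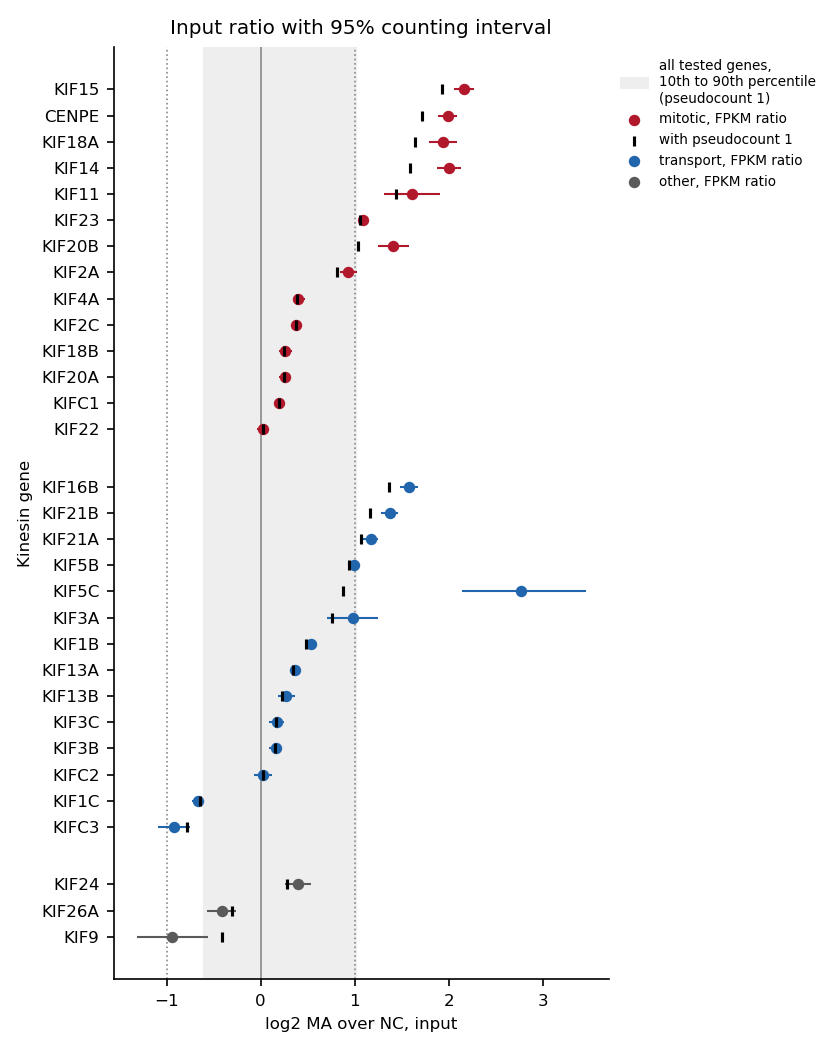
Log2 ratio of input FPKM, MA over NC (points, with 95% counting intervals as bars), and log2 difference with 1 FPKM added (black ticks) for the 31 tested kinesins, with the 10th to 90th percentile of all tested genes (-0.60 to 1.01) shaded. Dotted lines mark 2-fold, and 7 mitotic and 3 transport ticks lie past the right one.

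Level and transcript length moved with these differences. Tested genes were split into 3 equal bins by mean level, and 11.7% of the lowest bin, 13.0% of the middle and 6.16% of the highest were higher by 2-fold. The mitotic members past 2-fold numbered 2 of 2, 4 of 6 and 1 of 6 in these bins, and the transport members 0 of 2, 3 of 10 and 0 of 2. By gene length, recovered from the FPKM values, 6.25% of all genes were higher by 2-fold in the shortest bin, 11.6% in the middle and 13.1% in the longest. Of the mitotic members 6 lay in the longest bin, 4 of them past 2-fold, with a median difference of 1.31 against 0.29 for all genes of that bin. Of the transport members 10 lay there, with 3 past 2-fold and a median of 0.41. Centring each gene on the median of genes of like length left 5 mitotic members and 1 transport member past 2-fold, with medians of 0.65 and 0.03. KIF15, CENPE, KIF18A, KIF14, KIF11 and KIF16B were the 6 past 2-fold there. Every recovered length is a minimum value, and the shortest bin began at 67 bp. Other genes may thus stand in too short a bin. The lengths of KIF11 (raised to 1881 bp to hold its peaks) and KIF3A (1809 bp, 96.2% of it in MA peaks) are doubtful minimum values, so their bins and length-centred values are doubtful too. The shares of all genes per length bin and all length-centred values carry this limit. The part of length and level in the differences was not tested beyond these values.

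**Figure D3:**
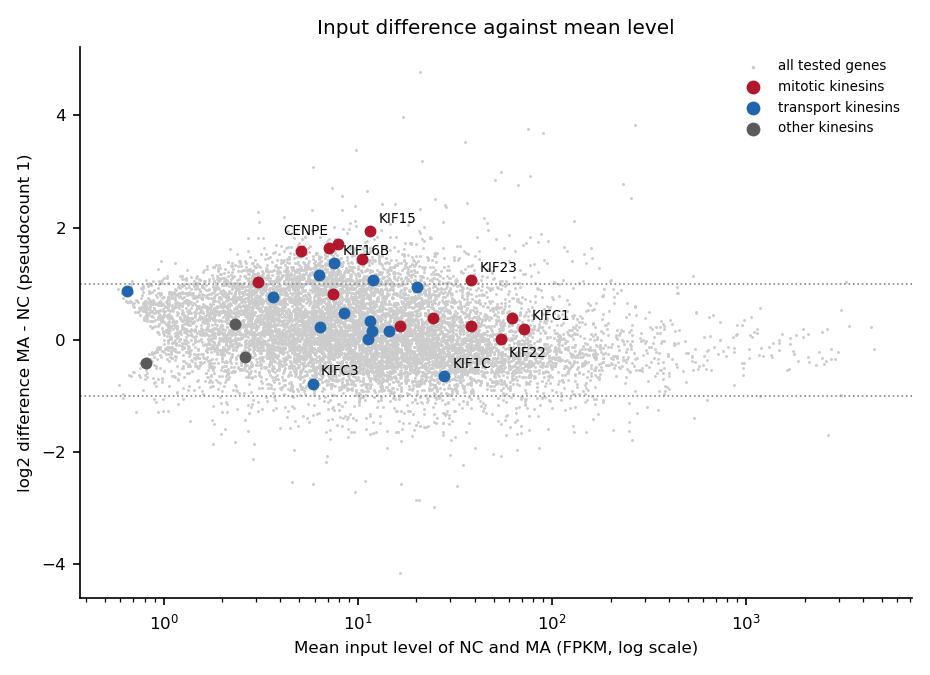
Log2 difference of the inputs (MA over NC, 1 FPKM added) against the mean input level of both libraries (log axis) for all tested genes (grey) and kinesins (coloured by class). KIF23 (1.06) is the one mitotic member past the upper dotted 2-fold line in the most abundant bin, where KIF22 and KIFC1 lie near 0.

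Genes that work with kinesins were read from lists of partners. Of 36 spindle and kinetochore partners, all tested, 15 (41.7%) were higher and 0 lower by 2-fold, with a median log2 difference of 0.66. Over all tested genes these were 10.3%, 2.98% and 0.11. The most different were the kinetochore gene NDC80 (15.3 FPKM in NC, 51.4 in MA, 1.68), the checkpoint kinase TTK (4.73 and 17.0, 1.65) and SKA1 (10.0 and 33.4, 1.64), which couples kinetochores to microtubules. Of 25 tested light chains and adaptors, which link kinesins to cargo, 1 (4.00%) was higher by 2-fold, under the share of all genes, and the list median of 0.13 was near theirs. This was RHOT1, the mitochondrial adaptor, at 3.32 and 7.89 (1.04). KTN1 (9.82 and 19.9, 0.95) and DENND4A (0.921 and 2.69, 0.94) were under 2-fold with 1 FPKM added. Their unadjusted values differ by more than 2-fold. Of 26 dynein and dynactin genes, the motor complex of the opposite direction, 0 reached 2-fold in either direction with 1 FPKM added, and their median was -0.01. Their largest differences were those of DYNC1I1 (1.85 in NC, 0.482 in MA, -0.94) and CAPZA1 (46.5 and 90.1, 0.94). The low level of DYNC1I1 makes the added 1 FPKM count, and its unadjusted values differ by more than 2-fold. Those of DYNLT2B (3.89 in NC, 7.92 in MA, 0.87) do so as well.

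In the RIP lists, m6A peaks were found in nearly all expressed kinesins. Of the 31 tested members, 29 had a peak in the NC list, against 83.3% of all tested genes, and 30 in the MA list, against 80.0%. All 14 mitotic members and 28 of the 31 had a peak in both lists, against 76.0% of all tested genes. KIFC3 had a peak only in the NC list, and KIF5C and KIF9 only in the MA list, against 7.29% and 4.04% of all tested genes. Of the members under 1 FPKM, KIF27 had peaks in both lists and KIF6 in NC alone. The family held 111 peaks in NC and 101 in MA.

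Kinesin peaks were annotated as exon more often than peaks at large. In the NC list 61.3% of the 111 kinesin peaks were annotated by the authors as exon (exact 95% interval 51.5 to 70.4%), against 33.8% of all 22067 peaks. The 3' UTR held 24.3% (16.7 to 33.4%), against 42.1%. In the MA list the shares were 54.5% exon (44.2 to 64.4%) and 29.7% 3' UTR (21.0 to 39.6%), against 34.0% and 42.8% of 19929 peaks. By class, 6 of 47 mitotic peaks in NC (12.8%, 4.83 to 25.7%) and 19 of 49 transport peaks (38.8%, 25.2 to 53.8%) were in the 3' UTR, with intervals that overlap. In MA these were 11 of 39 (28.2%) and 18 of 48 (37.5%). The difference between classes was not tested. The features are the authors' and their order along a gene was not always that of a transcript. In KIF14, on the minus strand, the NC peak called start codon (chromosome 1, 200618500 to 200618848) lay upstream of both NC peaks called 5' UTR. In KIF13A, also on the minus strand, a NC peak called 3' UTR (chromosome 6, 17951166 to 17951365) lay upstream of the one called stop codon (17760472 to 17763836). How many other peaks are placed in this way was not counted. Peaks of 1 gene share their transcript, so the intervals, which treat peaks as independent, are too narrow.

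**Figure D4:**
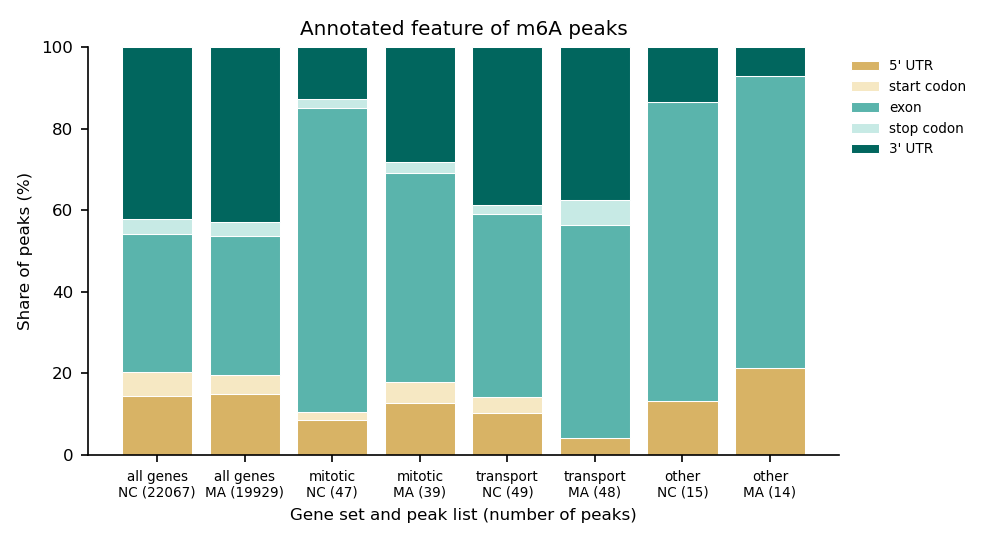
Share of m6A peaks (stacked bars, percent) by the authors' annotated feature, for all genes and for mitotic, transport and other kinesins in the NC and MA lists, with the number of peaks under each bar. Exon peaks make up 74.5% of mitotic kinesin peaks in NC and 51.3% in MA, against 33.8% and 34.0% of all peaks.

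The summed length of kinesin peaks was larger in MA, while the median peak was 300 bp in both lists. Their number was lower in MA (101 against 111), as was that of all peaks (19929 against 22067). The summed exonic length of the family's peaks was 44745 bp in NC, with a mean of 403 bp per peak, and 52447 bp in MA, with a mean of 519 bp, the longest being the 4180 bp peak of CENPE. Over all peaks the sums were 8774380 and 8615456 bp and the means 398 and 432 bp. Much of the family's larger sum came from CENPE (3390 bp in NC, 5825 in MA), KIF16B (1699 and 3950) and KIF20B (1552 and 2797). Of 28 tested kinesins with peaks in both lists, 18 (64.3%, against 45.9% of all such genes) had a longer sum in MA and 10 a shorter one. For mitotic members the sum was 17612 bp in NC and 23485 bp in MA, from 47 and 39 peaks. Of the 14 mitotic members, 10 had a longer sum in MA, against 45.9% of all tested genes with peaks in both lists. A sum at least 1.5 times longer was found in 5 of the 14, against 13.3% of all genes. Input level moved with this too, since 72.5% of all genes higher by 2-fold in the input had a longer sum in MA. Among the mitotic members it was 5 of the 7 past 2-fold in the input and also 5 of the 7 under 2-fold. A sum at least 1.5 times longer was found in 4 of the 7 past 2-fold and in 1 of the 7 under it. Of all genes higher by 2-fold in the input, 28.4% had a sum at least 1.5 times longer. The part of input level in the peak lengths was not tested.

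CENPE had the longest peak of the family. In NC it had 7 peaks over 3390 exonic bp, all annotated as exon, the most enriched at 10.0-fold (chromosome 4, 103146051 to 103153237, minus strand, GRCh38.p13). In MA it had 3 peaks over 5825 bp, 1 of them with an exonic length of 4180 bp (103133789 to 103159161), which ranked 8 by length among the 19929 peaks of the MA list. Peaks thus covered 39.7% of its recovered length in NC and 68.2% in MA. That MA peak spans the sites of several separate NC peaks, including the NC peak just given.

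KIF20B, KIF16B and KIF15 showed longer peaks in MA as well. KIF20B had 4 peaks over 1552 bp in NC and 2 over 2797 bp in MA. Its longest MA peak had 2397 exonic bp (chromosome 10, 89732966 to 89762697, plus strand) at 12.0-fold, above 99.2% of the folds in the MA list. KIF16B went from 4 peaks and 1699 bp to 10 peaks and 3950 bp, covering 21.7% and 50.5% of its recovered length. KIF15 had 5 peaks over 1201 bp in NC and 6 over 2099 bp in MA. KIF14 had 1747 bp in NC and 2490 bp in MA, with its most enriched peak in each list annotated as 5' UTR (chromosome 1, 200617903 to 200618351 in NC, 200615553 to 200618351 in MA, minus strand). Each of these 5 genes, CENPE included, was higher by 2-fold in the MA input. KIF18A kept the same 546 bp peak in both lists (chromosome 11, 28035407 to 28058935, minus strand) and had 3 peaks over 1194 bp in MA. KIF2A went from 150 to 700 bp and KIF3A from 897 to 1740 bp, both at input differences under 2-fold.

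The reverse was found in KIF26A, KIF23, KIF18B, KIF20A and KIF13B. KIF26A had 7 peaks over 2256 bp in NC and 2 over 302 bp in MA, at input levels of 3.00 and 2.25 FPKM. The most enriched of its NC peaks (chromosome 14, 104177447 to 104177747, plus strand, exon, 12.0-fold, above 98.3% of the NC list) had no partner in MA. KIF23, although higher by 2-fold in the input, had 1242 bp of peaks in NC and 746 bp in MA. KIF18B had 1490 and 894 bp, KIF20A 750 and 450 bp and KIF13B 1101 and 651 bp. KIF11 was nearly equal, at 1594 bp in 6 NC peaks and 1593 bp in 4 MA peaks. KIF24, at a summed length of 1450 and 1654 bp, held the most enriched kinesin peak of the MA list (chromosome 9, 34257295 to 34257545, minus strand, exon, 13.0-fold, above 99.4% of that list).

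**Figure D5:**
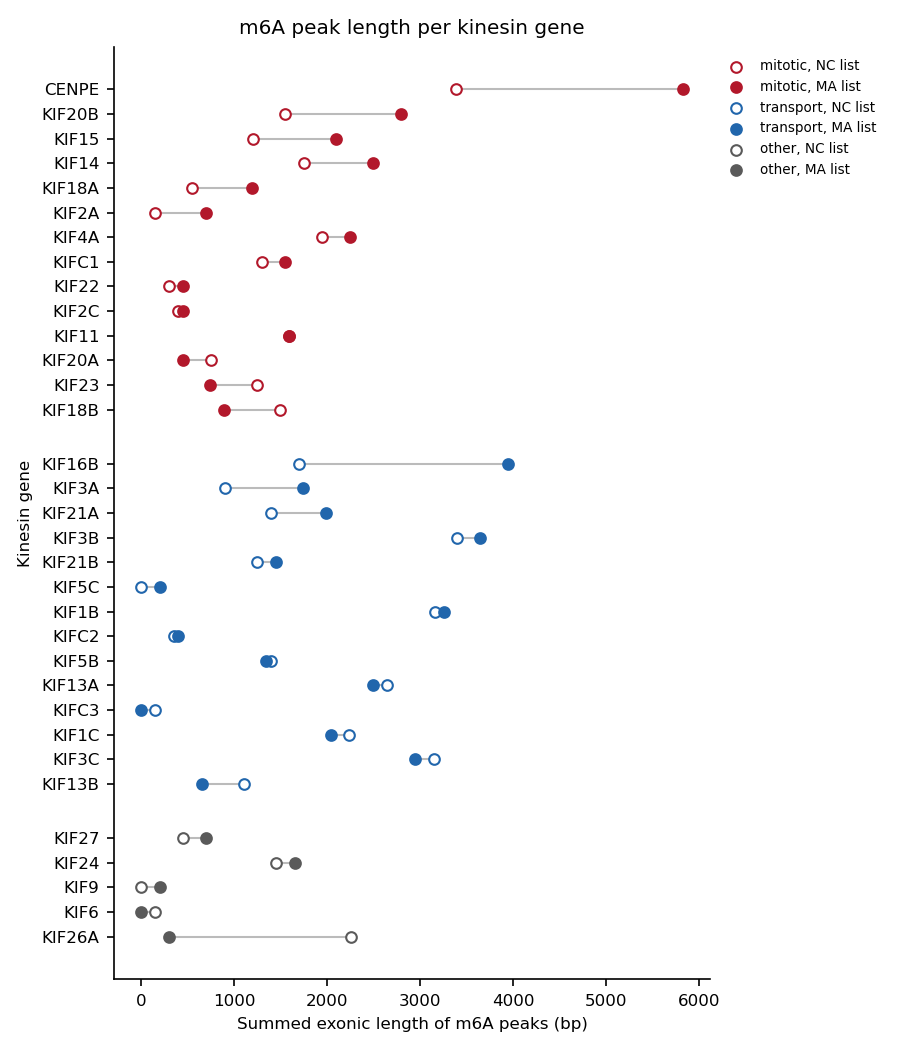
Summed exonic length of m6A peaks (bp) for each kinesin with a peak, in the NC list (open circles) and the MA list (filled circles), by class and ordered by the difference. CENPE (3390 and 5825 bp) and KIF16B (1699 and 3950 bp) are longer in MA, and KIF26A (2256 and 302 bp) is shorter.

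Most kinesin peaks had a partner in the other list. After merging, 83 of 111 kinesin regions in NC (74.8%, 65.6 to 82.5%) overlapped a MA region by at least 1 bp, against 73.8% of all NC regions. In MA 70 of 101 (69.3%, 59.3 to 78.1%) overlapped a NC region, against 79.6% of all MA regions. Unshared MA regions were most numerous in KIF16B, where most had no NC partner, and in KIF2A, where all had none. Regions of 1 gene share their transcript, so these intervals, which treat regions as independent, are too narrow. Overlap was taken over the whole span, and 40.5% of kinesin peaks in NC lay within 1 exon, against 59.8% of all peaks. When a partner had to cover 50% of each region, 41.4% of kinesin regions in NC and 45.5% in MA were shared, against 46.3% and 51.2% over all genes. Within its own list, the median fold enrichment of kinesin peaks was 3.54 in NC, where that of all peaks was 3.57, and 3.00 in MA, where it was 3.07. Mitotic peaks had medians of 3.00 and 2.37.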

How the data were processed

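The authors deposited 1 table of FPKM values for the inputs and 1 list of peaks for each condition, per the file headers. Per the submitters' processing notes, the build was GRCh38.p13 and the tools included ChIPseeker, deepTools, HISAT, HISAT2 and Trimmomatic. Neither the read counter, its use of strand nor the peak caller is given in the sources used here. The fold enrichment of each peak, a ratio of RIP over input, is the authors' deposited value, used only within its list, where the lowest was 1.50. Each peak also has a p-value from the authors, per the file headers.

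Input differences were taken on the log2 scale after adding 1 FPKM to both values, over genes that reached 1 FPKM in either input. This understates the change of low genes. Whole reads were recovered from the FPKM values as the smallest numbers, with a whole gene length, that match both libraries. All 13055 genes above 0 in both inputs resolved, while 1.00% of a random sample did after its values were moved slightly. In KIF11 the recovered length (627 bp) is shorter than its peaks, so its reads are a whole fraction of the true ones and its interval is too wide. Such lengths were raised to the next multiple that holds the peaks before genes were grouped by length. Peaks repeated at 1 position were counted once (132 NC and 99 MA rows), starts were raised by 1, and regions were merged by strand. PCR reads are not independent molecules, so intervals cover counting error only. Python 3.11.15 and scipy 1.17.1 were used. The input difference and the recovery of reads were tested on simulated counts without spread between cultures. The peak, promoter and length-centring steps were not tested in this way. Every member could be named, and of each partner list the 3 genes of largest difference. The members and lists were chosen with earlier results of these data known. Alternatives were other pseudocounts, filters, scalings and peak rules.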

Additional observations from a re-analysis of the deposited data

How the results depend on the processing

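No paired analysis was possible because each group has 1 library, and no library could be left out. None of the 10 kinesins past 2-fold changed sign under the alternatives run, which says little about how firm they are. Pseudocounts and filters cannot change a sign, and the centring shifts were small beside these differences. Of 211 values of single members under the alternatives, 110 lay outside the counting interval of the main difference. With a pseudocount of 5 FPKM, 4 mitotic and 0 transport kinesins stayed past 2-fold (CENPE, KIF11, KIF15 and KIF18A), and over all genes 273 were higher and 154 lower, against 1087 and 315. With a pseudocount of 0.1 FPKM 1801 genes were higher. After rescaling to TPM, 5 transport kinesins, with KIF5B and KIF5C added, and 1793 genes were higher. Centring on the median of genes of like length (10 equal bins) gave a family median of 0.18, against 0.39, 1 transport kinesin and 700 higher genes. Centring on the median of all genes, a shift of 0.11, took KIF20B, KIF21A and KIF23 under 2-fold and KIF22 and KIFC2 below 0. Centring by length also put KIF18B, KIF13A, KIF13B, KIF3B, KIF3C and KIF24 below 0. With peaks of at least 3-fold enrichment, 23 kinesin genes kept a peak in NC and 19 in MA, against 31 in each list. The same count over all genes was not made. The median fold of all peaks was 3.57 in NC and 3.07 in MA. With that filter 71.0% of kinesin regions in NC and 72.2% in MA were shared, against 60.9% and 75.2% of all regions. Shared kinesin regions were 41.4% in NC and 45.5% in MA when a partner had to cover 50% of each region, against 46.3% and 51.2%. With peaks within 1 exon they were 57.8% in NC and 63.4% in MA, against 59.5% and 69.5% of all regions. A stricter overlap can only lower a share, and a fold filter can only lower a count of genes. A larger pseudocount shrinks every difference and a smaller one widens it. Rescaling shifts all genes nearly alike, and centring subtracts 1 value from all genes or from those of a length bin. Beyond this arithmetic, the shifts were not tested. Depth limits the ratios of KIF1A, KIF5C, KIF7 and KIF25 most.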
